A study of Rattus norvegicus with 10 samples.

Results

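The enzymes described here are the non-P450 phase I enzymes and esterases of rat liver, 54 genes of the 14217 that the array measures with a probe set naming 1 gene. They were picked out by symbol, with earlier results of these data known. The families are carboxylesterases (Ces), alcohol and aldehyde dehydrogenases (Adh, Aldh), aldo-keto reductases of family 1 (Akr1) and carbonyl reductases (Cbr). Flavin monooxygenases (Fmo), aldehyde oxidases (Aox), epoxide hydrolases (Ephx) and the esterases Aadac and Nceh1 complete the list. The 54 genes have 68 probe sets, and the one with the highest average across the 10 arrays stands for its gene. Another 2 probe sets, which name several genes with a symbol of this kind, were not used.

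Liver RNA was taken from male rats of the outbred strain Sprague-Dawley, 5 of them after short-term exposure to bulk drug industry effluent and 5 as controls. Each array stands for 1 rat, and the labels give no dose, route, length of exposure or age. Values are log2 expression, so a difference of 1 is a factor of 2. A value belongs to its own probe set, and levels of different genes are not set against each other.

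Phase I enzymes add or uncover a reactive group on a foreign compound, which conjugating enzymes can then use. Outside the cytochrome P450 family, esterases split esters and amides, dehydrogenases and reductases move compounds between alcohol, aldehyde or ketone and acid, flavin monooxygenases and aldehyde oxidases add oxygen, and epoxide hydrolases open reactive epoxides with water. Many of these enzymes also have a substrate of the body's own, such as retinoids, steroids, bile acid precursors or stored lipid, and liver is a major site of most of the families.

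None of the 54 enzymes passed the test between exposed and control livers (limma with Benjamini-Hochberg adjustment over 31042 probe sets, threshold 0.05), where 0% of all probe sets passed. At an unadjusted p under 0.05 there were 3 members, or 5.56%, against a background of 5.46% of all probe sets and 5.20% of genes represented in the same way. The share of members is thus near the background. All 3 had lower values in exposed livers, namely Nceh1, Akr1c1 and Ces1e, where 2.39% of all probe sets and 2.64% of genes were lower at this p. Altogether 29 members were lower and 25 higher in exposed livers, and 50.9% of all genes were lower. The median difference was -0.01 over the members and -0.00206 over all genes. The count of 3 was 6 without exposed animal 2, 6 without exposed animal 3 and 5 without exposed animal 1, and it was 5 with the arrays centred on their medians. It fell to 2 without exposed animal 4.

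**Figure D1:**
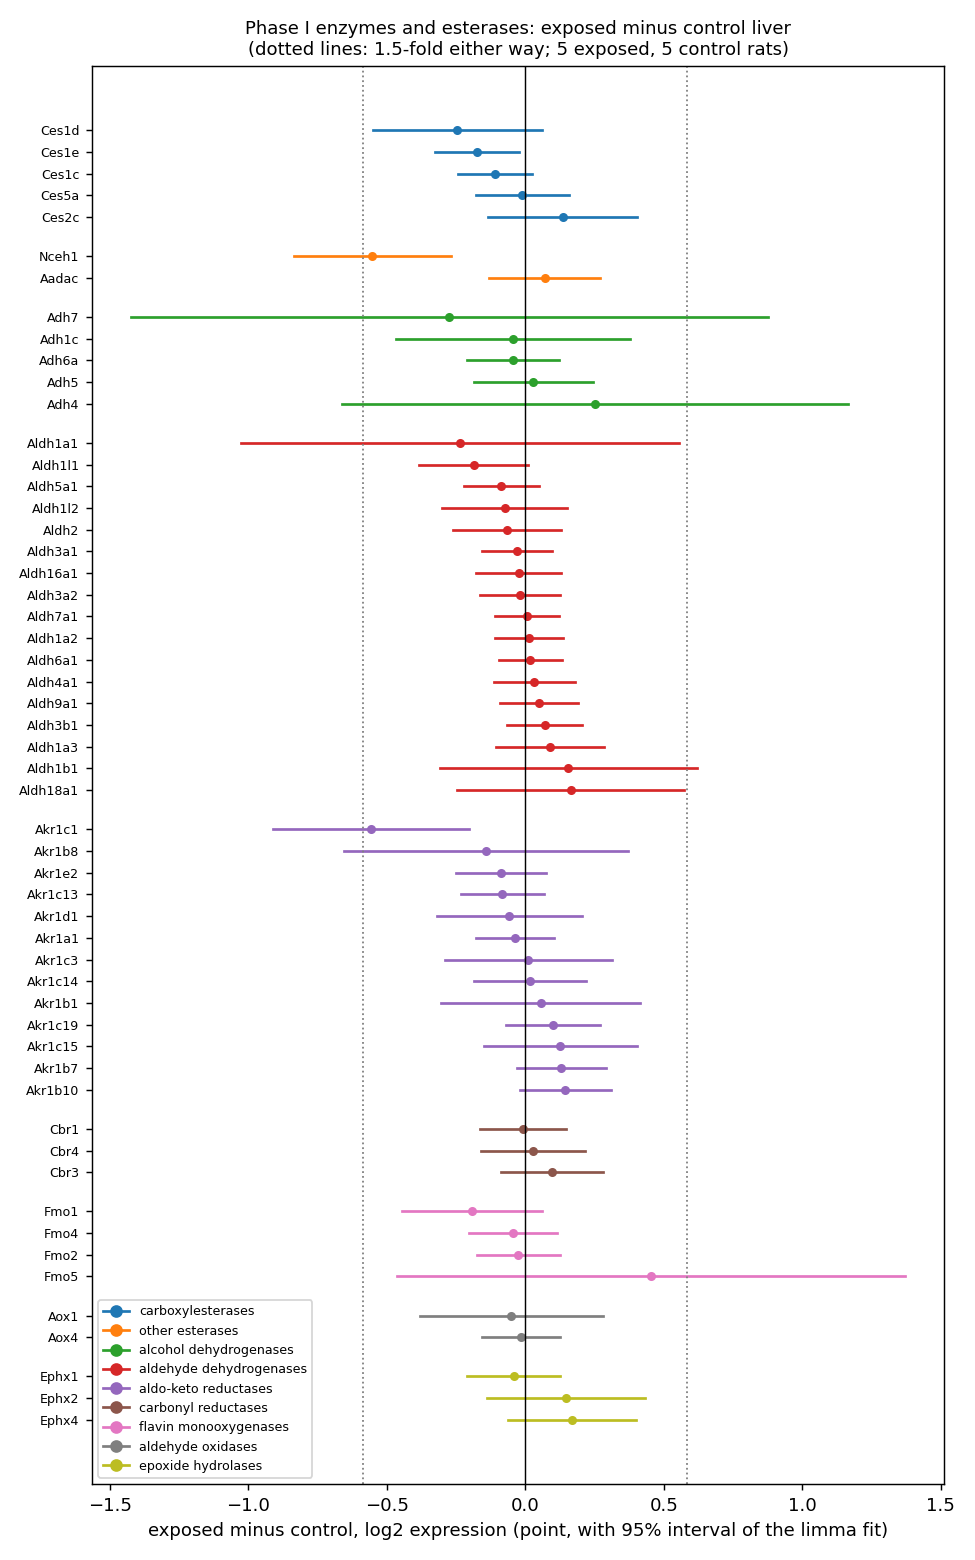
Exposed minus control log2 expression (x axis) of each of the 54 enzymes (y axis, grouped by family and coloured by it), with points for the difference and lines for the 95% interval of the limma fit in 5 exposed and 5 control rats. Nceh1, Akr1c1 and Ces1e have intervals below 0, and Adh7, Adh4, Aldh1a1 and Fmo5 have the widest ones.

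The 95% interval of the difference excluded a 1.5-fold change in either direction for 46 of the 54 members (85.2%) and a 2-fold change for 50 (92.6%). Among all genes these shares were 96.6% and 99.4%. The 46 include Ces5a, Adh6a, Aldh3a1, Akr1b7, Akr1b10, Fmo2, Aox4 and Ephx4, with means below the median of all probe sets (5.47). Whether their probe sets were above background is unknown, so for them the intervals bound array values only. The same limit applies to low-reading genes of the background. The members whose interval took in a 1.5-fold change were Nceh1, Adh4, Adh7, Aldh1a1, Aldh1b1, Akr1b8, Akr1c1 and Fmo5. For Adh4, Adh7, Aldh1a1 and Fmo5 it took in a 2-fold change as well.

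Among the esterases, Nceh1 had the smallest p of any member. It encodes a hydrolase of the endoplasmic reticulum membrane that splits cholesteryl esters and acetylated ether lipids, and it is a relative of Aadac. Nceh1 read 7.75, 8.17, 7.75, 7.37 and 7.51 in exposed animals 1 to 5, against 8.22, 8.05, 8.32, 8.26 and 8.47 in control animals 1 to 5. Exposed animal 2 lay above control animal 2, so the groups overlapped, while the other 4 exposed animals were below every control. The mean was 7.71 ± 0.30 in exposed and 8.26 ± 0.15 in control livers (SD, n = 5 each). The difference was -0.55 ± 0.13 (SE), or 1.47-fold lower, with a limma unadjusted p of 0.00107 and adjusted p of 0.879. Without exposed animal 2 the difference was -0.67 with a limma adjusted p of 0.364.

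Macrophages also contain Nceh1. Of 8 listed markers of Kupffer cells and macrophages, 7 were measured. Their mean ranged from 8.26 to 9.28 in exposed and from 7.96 to 9.20 in control livers. All 7 were higher in exposed livers with 0 passing the test, where 50.9% of all genes were lower. Exposed animal 3 and control animal 5 were the lowest of their groups for each marker, so the 7 are not separate readings. The 6 lymphocyte and 4 adipocyte markers measured were also all higher, with 6 and 3 of them below the median of all probe sets. The part of macrophages in the Nceh1 values was not tested. In whole liver, a change in the number of cells of a type and in RNA per cell cannot be told apart.

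The sequence before the start of Nceh1 is shown because the gene had the smallest p. These are the 250 bases upstream of the RefSeq start on build GRCr8, plus strand, chr2:112003427-112003676, with capitals for the CCAAT box, which is ATTGG here because it was read on the other strand. On both strands, the same window held no match to TATAAA. It held none to GCGTG, the core bound by the aryl hydrocarbon receptor, and none to TGACNNNGC, a core of the antioxidant response element.
Nceh1: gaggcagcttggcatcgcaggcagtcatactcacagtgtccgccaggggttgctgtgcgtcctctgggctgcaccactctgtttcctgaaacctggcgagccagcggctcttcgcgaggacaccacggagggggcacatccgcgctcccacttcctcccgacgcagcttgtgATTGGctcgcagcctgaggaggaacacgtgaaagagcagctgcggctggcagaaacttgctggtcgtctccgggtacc

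Of the 54 members, 44 had such a window in the RefSeq table. CCAAT or its reverse ATTGG was present in 25 of the 44 (56.8%) and in 34.3% of 27457 windows of all genes. GCGTG was present in 11 members (25%; 27.2% of all), TATAAA in 4 (9.09%; 13.1% of all) and TGACNNNGC in 3 (6.82%; 10.2% of all). A match says only that the letters are there.

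Aadac, arylacetamide deacetylase, hydrolyses several drugs in the liver endoplasmic reticulum. It read 11.39, 11.36, 11.43, 11.27 and 11.35 in exposed animals and 11.18, 11.22, 11.67, 11.25 and 11.13 in control animals. Control animal 3 was above all other animals, and the remaining controls were below every exposed animal. The difference was 0.07 (95% interval -0.13 to 0.27; limma adjusted p 0.945), and it was 0.16 without control animal 3.

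Of the 5 carboxylesterases, 4 had lower and 1 had higher values in exposed livers, with a family median of -0.11 and 0 past the test. Ces1e, a carboxylesterase of the hepatocyte endoplasmic reticulum, read 10.20, 10.29, 10.14, 10.13 and 10.08 in exposed animals and 10.42, 10.28, 10.48, 10.17 and 10.38 in control animals. The groups overlapped through exposed animals 1 and 2 and control animals 2 and 4. The difference was -0.18 ± 0.07 (SE), with a limma unadjusted p of 0.0276 and adjusted p of 0.879.

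Ces1d, which hydrolyses stored triglyceride as well as drug esters, read 12.66, 13.28, 12.39, 12.81 and 12.73 in exposed animals and 13.03, 13.01, 13.11, 12.73 and 13.21 in control animals. Exposed animal 2 had the highest value of the 10 rats, as for Nceh1 it had the highest of its group. The difference was -0.25 (95% interval -0.55 to 0.06; limma adjusted p 0.880), and without exposed animal 2 it was -0.37. Without exposed animal 3 it was -0.15.

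Ces1c, a carboxylesterase that rodent liver secretes into plasma, averaged 13.61 ± 0.08 in exposed and 13.71 ± 0.08 in control livers (SD, n = 5 each; difference -0.11). Its other probe set had a mean of 3.19 and a difference of -0.05. Ces2c differed by 0.13, and by 0.03 without control animal 2. Ces5a had a mean of 4.00, below the median of all probe sets (5.47), and differed by -0.01.

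**Figure D2:**
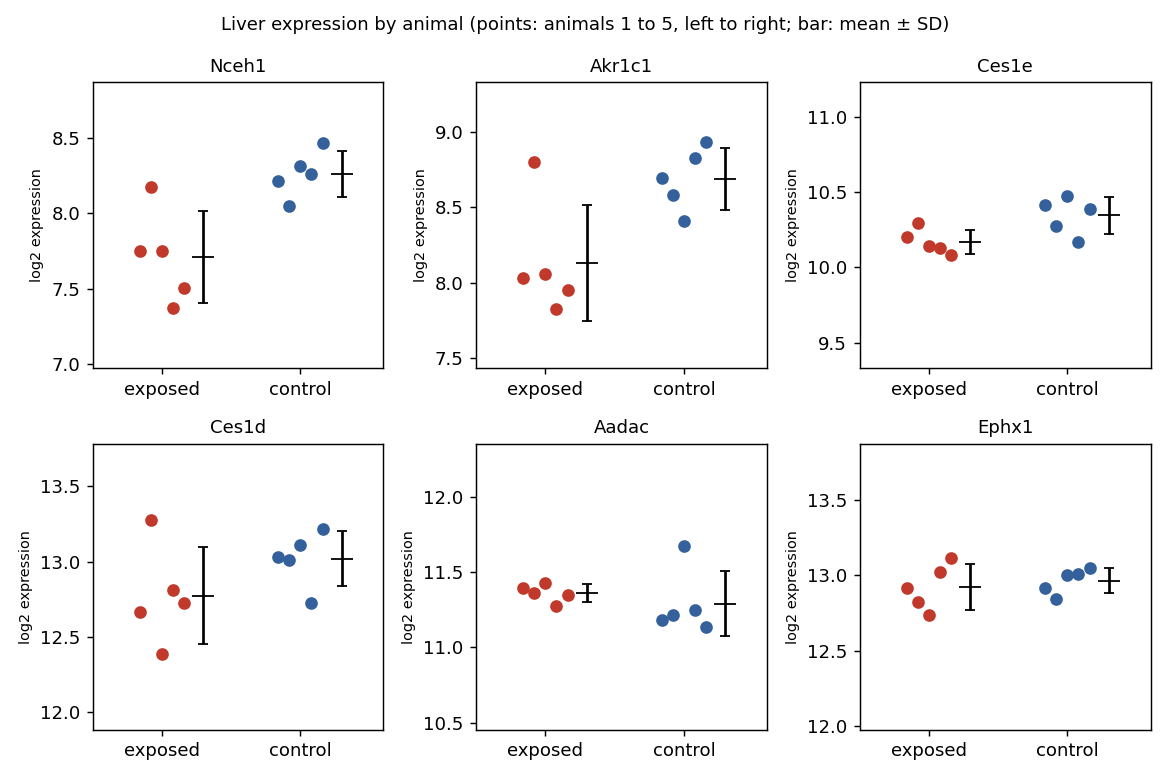
Log2 expression (y axis, the same span in each panel) of Nceh1, Akr1c1, Ces1e, Ces1d, Aadac and Ephx1 in each exposed and control rat (points, animals 1 to 5 from left to right), with the mean ± SD as a bar. Exposed animal 2 reads 8.17 for Nceh1, 8.80 for Akr1c1 and 13.28 for Ces1d, the highest of the exposed animals for each.

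The aldo-keto reductases reduce aldehydes and ketones of drugs, sugars and steroids. Of 13 members, 6 were lower and 7 were higher in exposed livers, with a median difference of 0.01 and 0 past the test. That median was below 0 under 9 of 18 alternatives (other settings of the processing or the fit, or 1 array left out), down to -0.06 without control animal 5. Akr1c1, listed in RefSeq also as Hsd17b5 and so named as a steroid dehydrogenase, read 8.03, 8.80, 8.06, 7.82 and 7.95 in exposed animals and 8.70, 8.58, 8.41, 8.83 and 8.94 in control animals. Exposed animal 2 lay within the controls and the other 4 exposed animals were below all of them. The mean was 8.13 ± 0.38 in exposed and 8.69 ± 0.21 in control livers (SD, n = 5 each). The difference was -0.56 ± 0.16 (SE), or 1.47-fold lower, with a limma unadjusted p of 0.00475 and adjusted p of 0.879. Without exposed animal 2 it was -0.72 with a limma adjusted p of 0.364.

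The 5 other measured Akr1c genes, neighbours of Akr1c1 on chromosome 17, differed by -0.08 (Akr1c13), 0.01 (Akr1c3), 0.02 (Akr1c14), 0.10 (Akr1c19) and 0.13 (Akr1c15). Whether these differ from the value of Akr1c1 was not tested, and Akr1c genes resemble one another closely, so a probe set may bind more than 1 of their transcripts. Akr1c14, a hepatic 3-alpha-hydroxysteroid dehydrogenase of the rat, read 12.45, 12.45, 12.53, 12.33 and 12.72 in exposed animals and 12.26, 12.44, 12.41, 12.71 and 12.58 in control animals. The groups overlapped over most of their range, with a difference of 0.02 (95% interval -0.19 to 0.22; limma adjusted p 0.988). Its other probe sets differed by 0.05 and -0.00323 and followed the first across animals with r = 0.95 and 0.93 (10 animals, group means removed, a description).

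Among the Akr1b genes on chromosome 4, Akr1b8 had a large spread. It read 5.97, 6.41, 5.59, 5.23 and 6.08 in exposed animals and 6.41, 5.51, 6.39, 6.18 and 5.51 in control animals, so that high and low animals occurred in both groups. Its difference was -0.14 (95% interval -0.65 to 0.37; limma adjusted p 0.956), or 0.02 without exposed animal 4 and -0.28 without exposed animal 2. Akr1b10 gave the highest difference of the family at 0.14, from a mean of 3.92, and its other probe set gave 0.00381. Akr1b1, aldose reductase, and Akr1a1, aldehyde reductase, differed by 0.06 and -0.04. Akr1d1, the reductase that gives bile acids their bent ring, differed by -0.06, with its other probe set at -0.08.

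Of the 5 alcohol dehydrogenases, 3 were lower and 2 were higher in exposed livers, with a median difference of -0.04 and 0 past the test. That median was above 0 under 7 of 18 alternatives, up to 0.06 without exposed animal 5. The SD between animals of a group, pooled over both groups, had a family median of 0.37 on the log2 scale, against a median of 0.127 over all genes. All 5 lie on chromosome 2. Adh1c (also listed as Adh1), the class I enzyme that oxidises most ethanol in liver, read 14.05, 13.67, 13.46, 13.91 and 13.45 in exposed animals and 13.93, 12.94, 14.01, 13.91 and 13.97 in control animals. Control animal 2 was the lowest and exposed animals 3 and 5 came next. The difference was -0.04 (95% interval -0.47 to 0.38; limma adjusted p 0.984). Leaving out control animal 2 gave -0.25, and leaving out control animal 3 gave 0.02.

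The other probe set of Adh1c ordered the animals in nearly the same way over a wider range. It read 10.35, 9.21, 9.01, 9.74 and 8.74 in exposed animals and 9.84, 8.15, 10.23, 10.10 and 9.94 in control animals. From lowest to highest animal it spanned 2.20 log2 units, and the first probe set spanned 1.11. The first lay near the upper end of the array's values, which reached 15.0, and whether this bears on its narrower range was not tested. Across the 10 animals, group means removed, the pair had r = 0.98, given as a description.

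Adh7, the class IV enzyme known from stomach and active on retinol, had the largest SD of all members (1.05). It read 6.77, 5.96, 5.77, 5.81 and 4.40 in exposed animals and 5.67, 4.14, 7.35, 6.32 and 6.59 in control animals. Exposed animal 5 and control animal 2 stood well below the rest. The difference was -0.27 (95% interval -1.42 to 0.88; limma adjusted p 0.963), with -0.74 on leaving out control animal 2 and 0.06 on leaving out either control animal 3 or exposed animal 5.

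Adh4, the class II enzyme, read 8.63, 8.67, 6.56, 7.88 and 8.51 in exposed animals and 8.91, 7.05, 7.55, 7.25 and 8.21 in control animals. Exposed animal 3 was lowest. The difference was 0.25 (95% interval -0.66 to 1.17; limma adjusted p 0.956), with 0.62 on leaving out exposed animal 3 and 0.07 on leaving out control animal 2. Adh5, the class III enzyme that clears formaldehyde bound to glutathione, read 10.97, 10.74, 10.65, 10.79 and 10.66 in exposed animals and 10.91, 10.43, 10.74, 10.66 and 10.93 in control animals. Control animal 2 was again the lowest, and Adh5 differed by 0.03 with an SD of 0.17. Adh6a had a mean of 4.81, below the median of all probe sets, and differed by -0.04.

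The values of neighbouring members were set against each other across animals, with group means removed. All 46 pairs of members that start within 1 Mb of each other were computed. This comparison was chosen after the values were seen, so its p-values do not test a relation set in advance. With Adh1c, Adh5 gave Pearson r = 0.86 (permutation p 0.00051, adjusted 0.0235) and Spearman rho = 0.89 (permutation p 0.00116, adjusted 0.0534; 10 animals). Adh1c and Adh7 gave r = 0.85 (permutation p 0.00194, adjusted 0.0446) and rho = 0.85 (permutation p 0.00296, adjusted 0.0681). Without exposed animal 5 and control animal 2, the animals farthest from the median of Adh1c, r was 0.68 for Adh5 and 0.51 for Adh7. Leaving out the extremes of a gene tends to lower r in itself. How far both relations rest on these animals therefore cannot be told from these values. With the other Adh1c probe set, Adh7 gave r = 0.90, and 0.65 without the same animals.

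Of the 46 pairs, 28 had a positive and 18 a negative r, with a median of 0.12, and 7 had an unadjusted permutation p under 0.05. Only the 2 pairs of Adh1c with Adh5 and with Adh7 passed after adjustment by r, and 0 passed by rho. Pairs of genes farther apart were not computed, so whether these counts are particular to neighbours is not known. The permutations shuffled the animals of both groups together after group means were removed, and did not allow for that removal. These p-values are therefore likely too small, and whether the 2 pairs would pass a stricter test is not known. Ces1d and Ces1e gave r = 0.66 (permutation p 0.0334, adjusted 0.281; rho = 0.66, permutation p 0.0434, adjusted 0.309), and r = 0.70 without exposed animals 2 and 3. The points of each pair share an array and its normalization.

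**Figure D3:**
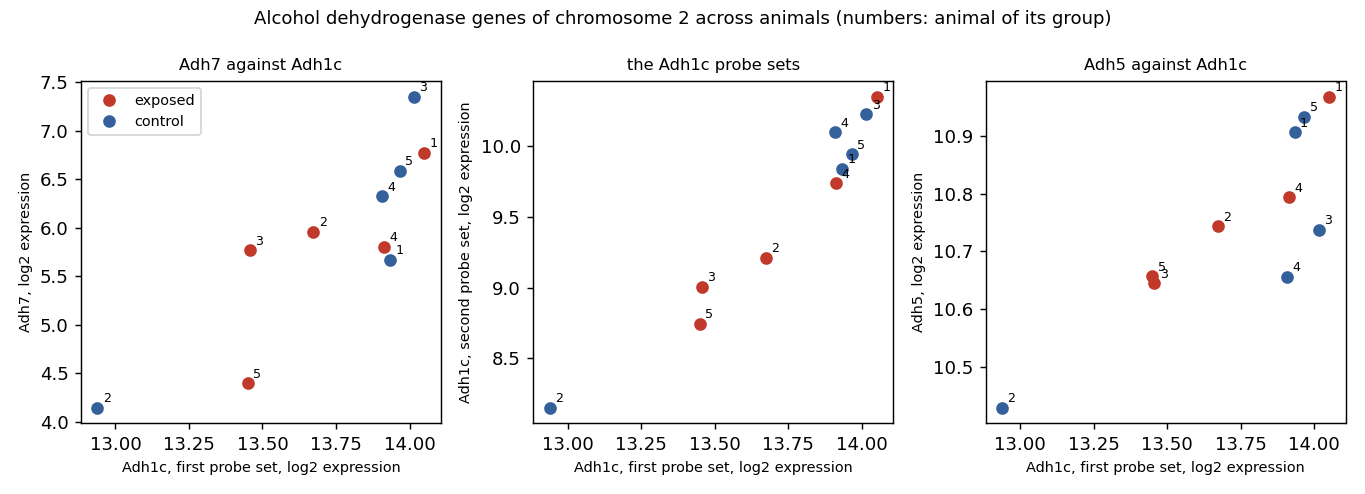
Log2 expression in each rat (numbers give the animal of its group, exposed and control in different colours) for Adh7 against Adh1c, the other Adh1c probe set against the first, and Adh5 against Adh1c. Control animal 2 is the lowest in all 3 panels on both axes, at 12.94 for Adh1c, 4.14 for Adh7 and 8.15 for the other Adh1c probe set.

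The windows before the starts of Adh1c and Adh7 are shown because the values of this pair moved together between animals. They are 250 bases each, upstream of the RefSeq start on build GRCr8 and on the plus strand, at chr2:229470453-229470702 for Adh1c and chr2:229421875-229422124 for Adh7. Capitals mark CCAAT or ATTGG in Adh1c and GCGTG, read as CACGC on the other strand, in Adh7. No letters searched for occurred in both of these windows. The window of Adh5, whose values also moved with those of Adh1c, is not shown. It held CCAAT or ATTGG, as in Adh1c, and GCGTG or CACGC, as in Adh7.
Adh1c: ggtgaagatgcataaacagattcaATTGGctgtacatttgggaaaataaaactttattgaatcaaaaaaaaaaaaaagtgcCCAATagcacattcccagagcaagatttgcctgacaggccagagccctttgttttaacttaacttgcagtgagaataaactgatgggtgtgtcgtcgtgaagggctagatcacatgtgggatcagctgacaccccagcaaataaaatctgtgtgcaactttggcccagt
Adh7: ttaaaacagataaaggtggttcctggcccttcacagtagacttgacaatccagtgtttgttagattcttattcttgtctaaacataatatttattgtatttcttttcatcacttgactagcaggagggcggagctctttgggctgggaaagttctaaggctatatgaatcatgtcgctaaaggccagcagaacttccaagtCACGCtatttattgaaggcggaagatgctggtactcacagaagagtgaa

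The aldehyde dehydrogenases turn aldehydes into acids, and many of them serve amino acid and folate metabolism. Of 17 members, 8 were lower and 9 were higher in exposed livers, with a median difference of 0.01 (below 0 under 5 of 18 alternatives) and 0 past the test. Most were steady between animals, with a family median SD of 0.0946, the lowest of the 9 families. Aldh6a1 (valine breakdown) had an SD of 0.0449 and Aldh7a1 (lysine breakdown) of 0.0491. Their differences were 0.02 and 0.01.

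Aldh2, the mitochondrial enzyme that clears acetaldehyde, read 12.18, 12.23, 12.27, 12.08 and 12.05 in exposed animals and 11.95, 12.19, 12.20, 12.39 and 12.43 in control animals. The exposed animals lay within the range of the controls. The difference was -0.07 (95% interval -0.26 to 0.13; limma adjusted p 0.945), or -0.14 on leaving out control animal 1 and -0.02 on leaving out control animal 5.

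Aldh1a1, which makes retinoic acid from retinaldehyde, had the largest spread of the family (SD 0.72). It read 9.22, 8.46, 8.96, 8.93 and 9.07 in exposed animals and 10.26, 7.83, 9.08, 8.72 and 9.95 in control animals. The controls spanned both the highest and the lowest values of the 10 rats, with control animal 2 again lowest. The difference was -0.24 (95% interval -1.03 to 0.56; limma adjusted p 0.947), with 0.04 on leaving out control animal 1 and -0.57 on leaving out control animal 2. The SD was 0.29 in exposed and 0.97 in control animals, and the difference between these SDs was not tested.

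Aldh1b1, a mitochondrial enzyme, read 8.69, 8.67, 9.18, 8.74 and 9.30 in exposed animals and 8.42, 8.78, 9.50, 8.91 and 8.19 in control animals, again with the controls spanning the wider range. The difference was 0.16 (95% interval -0.31 to 0.62; limma adjusted p 0.945), or 0.34 on leaving out control animal 3 and 0.01 on leaving out control animal 5. Aldh18a1, which starts proline synthesis, gave the highest difference of the family at 0.16, and 0.00149 without exposed animal 1. Aldh1l1, the cytosolic enzyme that releases carbon dioxide from formyl folate, differed by -0.19 with a limma unadjusted p of 0.0606. Aldh3a1, which rat liver makes on activation of the aryl hydrocarbon receptor, had a mean of 5.03, below the median of all probe sets. It averaged 5.02 ± 0.04 in exposed and 5.05 ± 0.09 in control livers (SD, n = 5 each), a difference of -0.03 (95% interval -0.16 to 0.10; limma adjusted p 0.963).

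**Figure D4:**
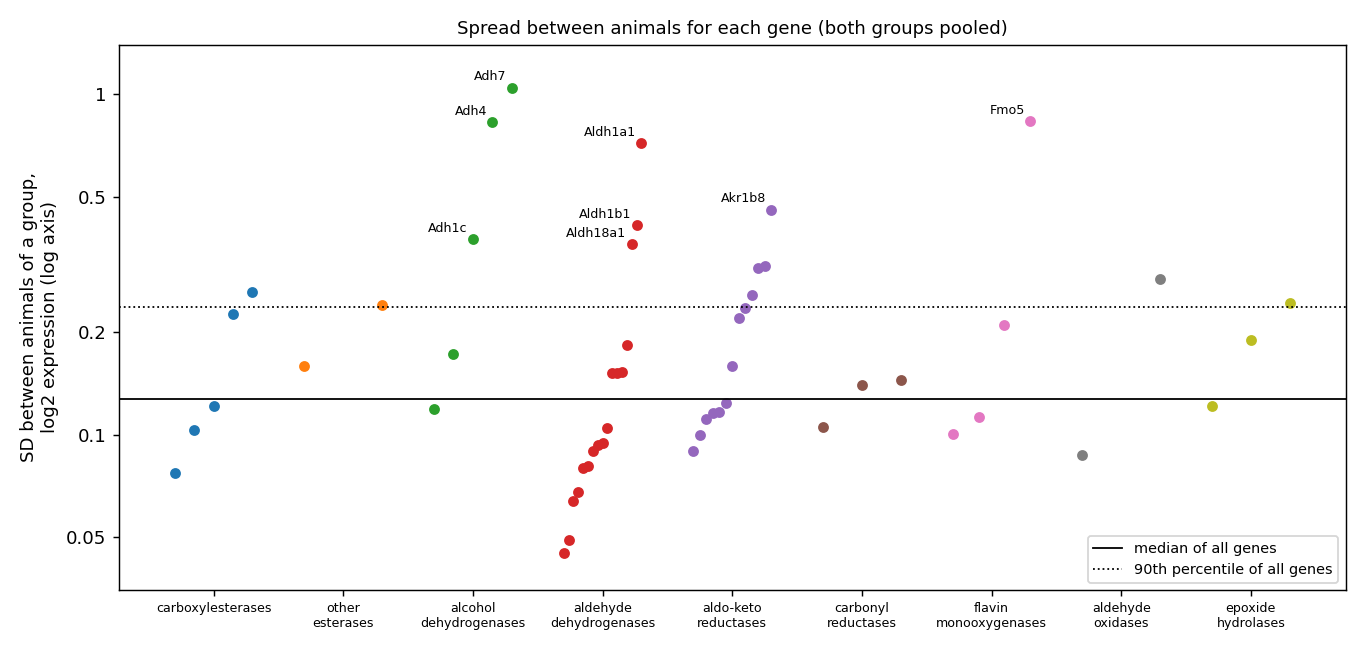
SD between animals of a group (y axis, log scale, log2 expression, both groups pooled) of each of the 54 enzymes by family (x axis), with the median and the 90th percentile of all genes as lines at 0.127 and 0.237. Adh7, Fmo5, Adh4 and Aldh1a1 lie above 0.5, and most aldehyde dehydrogenases lie below the median of all genes.

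An SD above 0.5 was reached by 4 of the 54 members (7.41%), Adh7, Fmo5, Adh4 and Aldh1a1, and by 1.26% of all genes. The median SD was 0.148 over the members and 0.127 over all genes. Restricted to probe sets above the median of all probe sets, it was 0.156 over 46 members and 0.125 over 9666 genes. The 8 members below that level were Ces5a, Adh6a, Aldh3a1, Akr1b7, Akr1b10, Fmo2, Aox4 and Ephx4.

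The flavin monooxygenases oxidise nitrogen and sulfur atoms of drugs. Of the 4 measured, 3 were lower and 1 was higher in exposed livers, with a median difference of -0.03 and 0 past the test. Fmo1, a main form in rat liver, read 11.29, 11.38, 11.62, 11.07 and 11.16 in exposed animals and 11.14, 11.51, 11.54, 11.65 and 11.64 in control animals. Control animal 1 lay among the low exposed animals and exposed animal 3 among the high controls. The difference was -0.19 (95% interval -0.44 to 0.06; limma adjusted p 0.884), and without control animal 1 it was -0.28.

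Fmo5, whose enzyme acts as a Baeyer-Villiger oxygenase and inserts oxygen beside a ketone, read 9.78, 10.41, 10.29, 9.30 and 9.46 in exposed animals and 10.34, 9.55, 7.57, 9.96 and 9.56 in control animals. Control animal 3 was far below the other 9 rats, and the remaining values of the groups overlapped. The difference was 0.45 (95% interval -0.46 to 1.37; limma adjusted p 0.919), and without control animal 3 it was -0.00172. Fmo5 has 1 probe set here, so no second reading of that animal was at hand. Fmo4 and Fmo2 differed by -0.04 and -0.02.

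Of the aldehyde oxidases, molybdenum enzymes that oxidise many nitrogen-ring drugs, Aox1 read 11.05, 10.61, 11.00, 10.49 and 10.91 in exposed animals and 10.44, 10.90, 10.65, 11.10 and 11.22 in control animals. High and low animals were found in both groups. The difference was -0.05 (95% interval -0.38 to 0.28; limma adjusted p 0.976), or -0.16 on leaving out control animal 1 and 0.04 on leaving out control animal 5. Aox4 had a mean of 4.67 and differed by -0.01, or by 0.03 without exposed animal 1.

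Of the 3 epoxide hydrolases, 1 was lower and 2 were higher in exposed livers, with a median difference of 0.15, or 0.05 without control animal 5, and 0 past the test. Ephx1, the microsomal form that barbiturates are known to induce in rat liver, read 12.92, 12.83, 12.74, 13.02 and 13.11 in exposed animals and 12.91, 12.84, 13.01, 13.01 and 13.05 in control animals. Both the lowest and the highest value were in exposed animals. The difference was -0.04 (95% interval -0.21 to 0.13; limma adjusted p 0.961), and without exposed animal 3 it was 0.00556. Ephx2, the soluble form that acts on fatty acid epoxides, differed by 0.15 (95% interval -0.14 to 0.43), and by 0.05 without control animal 5, the lowest of the 10 rats at 9.21. Ephx4 differed by 0.17 from a mean of 3.24, and its other probe set by -0.02.

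The carbonyl reductases reduce ketones of drugs such as anthracyclines. Cbr1 read 7.02, 6.94, 6.85, 6.82 and 6.89 in exposed animals and 6.88, 7.11, 6.87, 6.92 and 6.77 in control animals, with groups that overlapped. The difference was -0.01 (95% interval -0.16 to 0.15; limma adjusted p 0.992), or 0.04 on leaving out control animal 2 and -0.04 on leaving out control animal 5. Cbr3 differed by 0.10, or 0.04 without exposed animal 1, and the mitochondrial Cbr4 by 0.03.

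No member had groups that did not overlap (0 of 54), where 0.788% of genes and 0.892% of all probe sets had such groups. A repeat reading was possible for 11 members with further probe sets. Of their 14 other probe sets, 11 had the same sign of difference as the first and 3 had the opposite sign, at -0.00323 for Akr1c14, -0.02 for Ephx4 and 0.00586 for Fmo2. Across animals, group means removed, r with the first ranged from -0.45 (Akr1b1) to 0.98 (Adh1c). It was -0.06 for Aldh6a1, 0.04 and 0.42 for Fmo2, 0.22 and 0.82 for Aldh5a1 and 0.80 for Akr1d1. Some had low means, such as 3.19 for Ces1c and 2.87 for Ephx4. The share of like signs over all genes was not computed, so the count does not show agreement.

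Other enzymes and partners of phase I metabolism were compared as a list of 32 genes, such as Por, the reductase that feeds electrons to P450 enzymes. None passed the test, 11 were higher and 21 were lower in exposed livers, and the median difference was -0.04. Limma gave 4 of the 32 at an unadjusted p under 0.05, all lower, and 1 without exposed animal 5. Among all genes 5.20% had such a p, 2.64% were lower with such a p, and 50.9% were lower at any p. The 4 were Dpyd, which breaks down pyrimidines, at -0.28 ± 0.08 (SE), Sord, sorbitol dehydrogenase, at -0.20 ± 0.08, Dhrs4 at -0.15 ± 0.07 and Afmid, kynurenine formamidase, at -0.18 ± 0.08. The limma adjusted p of each was 0.879. Among 12 measured genes of 13 regulators, such as the nuclear receptors Nr1i2 and Nr1i3 that turn on many of these enzymes, limma called 0, with 0 at an unadjusted p under 0.05 and a median difference of -0.02.

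As a check of the labelled tissue, 6 of 6 hepatocyte markers were measured, with gene means from 9.63 to 14.99. Their mean lay between 13.43 and 13.61 in exposed and between 13.47 and 13.64 in control livers. Markers of pancreatic acinar cells and skeletal muscle, tissues a liver sample could carry along, gave means between 5.16 and 5.30 and between 4.02 and 4.16 in exposed livers, against 5.14 to 5.39 and 3.97 to 4.12 in control livers. Of the 5 acinar markers, Cela1, named after its values were seen, averaged 9.81 and the other 4 averaged between 3.58 and 5.07. RMA values have no 0, so an absent transcript cannot be read from them. The 3' to 5' log2 ratio of Gapdh and beta-actin, a sign of RNA quality, was 0.56 ± 0.04 in exposed and 0.61 ± 0.08 in control animals (SD, n = 5 each; two-sided exact permutation p 0.278, the smallest possible being 0.00794). Control animal 5 had the highest ratio, 0.735. It was the lowest of the 10 rats for 11 of the 54 members and the highest for 9, and the part of RNA quality in this was not tested.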

How the data were processed

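Liver RNA of 10 male rats (5 exposed, 5 control) was hybridised to Affymetrix 3' expression arrays. Each deposited value is a log2 expression value per probe set. The submitters' processing notes name RMA and R 2.8.1. RMA removes background and brings the probes of all arrays to a common distribution, so a shift shared by most genes is removed. The scale follows from the range of 2.19 to 15.0. Scanner files were not used here, so which probe sets were above background is unknown, and the number of arrays limits precision.

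Of 31099 probe sets, 57 control sets were left out. Names came from the platform annotation. Of 20826 probe sets naming 1 gene, 20758 were found in RefSeq (GRCr8). Array medians lay between 5.43 and 5.49 and correlations between 0.991 and 0.996. Groups were compared with limma 3.58.1 in R 4.3.3 (lmFit, eBayes, two-sided, Benjamini-Hochberg adjustment), tested on simulated data. Promoter windows are RefSeq sequence of GRCr8. Correlations used 100000 permutations. The members, lists and tests were chosen with earlier results of these data known. The neighbour pairs were chosen after the values were seen. Every member may be named. Each animal's value is given for members at an unadjusted p under 0.05, those whose groups do not overlap (0 members), the 6 with the largest SD and the best-known member of each family.

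Same-numbered exposed and control arrays had correlations of deviations between -0.07 and 0.09. The labels do not say what a shared number means. A pairing need not leave a trace in these correlations, so whether the numbers pair animals cannot be told from them.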

Additional observations from a re-analysis of the deposited data

Results flagged for a closer look

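In 14 of 108 groups of 5 animals (13.0%), the gap from 1 animal to the nearest other was over 0.71 of the group's range, where chance gives about 1 in 20 (5.4 groups). Over all 14217 genes it was 1636 of 28434 groups (5.75%), and whether the members differ from the other genes in this was not tested. Exposed animal 3 read 12.01 for Aldh3a2 (others 12.10 to 12.11), 12.06 for Akr1a1 (12.13 to 12.16) and 7.57 for Akr1b1 (8.13 to 8.32). Exposed animal 1 read 6.71 for Aldh18a1 (5.76 to 5.98). Exposed animal 2 read 8.80 for Akr1c1 (7.82 to 8.06), exposed animal 4 read 5.96 for Aldh1a2 (5.74 to 5.80) and exposed animal 5 read 4.54 for Adh6a (4.80 to 4.89). Among controls, animal 1 read 3.04 for Akr1b7 (3.27 to 3.34), 11.17 for Akr1c13 (11.33 to 11.38) and 11.14 for Fmo1 (11.51 to 11.65). Control animal 2 read 12.94 for Adh1c (13.91 to 14.01), control animal 3 read 11.67 for Aadac (11.13 to 11.25) and 7.57 for Fmo5 (9.55 to 10.34), and control animal 5 read 4.62 for Aox4 (4.68 to 4.69).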

How the results depend on the processing

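The alternatives were a filter on low values, median centring, quantile normalization, a replicate block, array weights, a trended robust prior, RNA quality as a covariate, the mean of all probe sets of a gene and leaving out each array. No member passed under any of them, and the count of all probe sets past the threshold was 0 in all but 1 case, since leave-one-out gave 0 to 1, with 1 on dropping exposed animal 1. Members at an unadjusted p under 0.05 numbered 3, with 5 under median centring, 4 with the trended robust prior and 2 to 6 on leaving out 1 array, and the list of other phase I enzymes gave 4, with 1 to 5. With the replicate block the 3 members stayed 3 in number, the difference of Nceh1 was -0.55 (limma adjusted p 0.894) and no call changed.

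None of the differences that changed sign had an interval that excluded 0. Under median centring Akr1c14 was -0.00681, Aldh6a1 -0.00402, Aldh7a1 -0.0177 and Akr1c3 -0.0112, and Cbr1 was 0.00849 under quantile normalization. With array weights Adh1c was 0.00871, Ces5a 0.00051 and Akr1c3 -0.0172. With RNA quality as a covariate Adh1c was 0.0336, Adh6a 0.00458, Adh7 0.128, Aldh2 0.0298, Aldh3a1 0.0155, Akr1b1 -0.0873, Akr1c3 -0.0156 and Aox1 0.0404. Leaving out 1 array gave ranges of -0.247 to 0.0219 for Adh1c, -0.741 to 0.0628 for Adh7, -0.569 to 0.0363 for Aldh1a1, -0.281 to 0.0155 for Akr1b8, -0.0400 to 0.0741 for Akr1c14, -0.0442 to 0.0413 for Cbr1, -0.00172 to 0.690 for Fmo5, -0.156 to 0.0406 for Aox1, -0.0403 to 0.0312 for Aox4 and -0.0883 to 0.00556 for Ephx1. It gave -0.0634 to 0.0468 for Ces5a, -0.0469 to 0.0794 for Adh5, -0.0735 to 0.0191 for Adh6a, -0.00237 to 0.0387 for Aldh6a1, -0.0130 to 0.0199 for Aldh7a1, -0.0594 to 0.00422 for Akr1a1, -0.0697 to 0.187 for Akr1b1, -0.0847 to 0.137 for Akr1c3, -0.161 to 0.0324 for Akr1d1, -0.0151 to 0.101 for Cbr4 and -0.0555 to 0.0131 for Fmo2. The cause was not tested. Nceh1 kept its sign, from -0.67 to -0.47, as did Akr1c1, from -0.72 to -0.48, and Ces1e, from -0.22 to -0.14. The correlation of Adh1c with Adh7 was 0.68 to 0.90 on leaving out 1 array, an alternative chosen after seeing the data.

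Over all 18 alternatives the median difference ranged from -0.0354 (median centring) to 0.016 (RNA quality covariate) over the members. Family medians that changed sign ranged from -0.0735 to 0.0552 (alcohol dehydrogenases), -0.0234 to 0.0229 (aldehyde dehydrogenases), -0.0589 to 0.0283 (aldo-keto reductases), -0.00278 to 0.101 (carbonyl reductases) and -0.0831 to 0.0116 (aldehyde oxidases). The epoxide hydrolase median, 0.147, was 0.0529 under the filter on low values, 0.0758 with the mean of all probe sets, 0.0812 with the RNA quality covariate and 0.0485 without control animal 5. Those of the carboxylesterases, other esterases and flavin monooxygenases stayed below 0. The other esterases are only Nceh1 (-0.55) and Aadac (0.07), of opposite sign, so their median follows Nceh1. The flavin monooxygenase median came to -0.00313 without exposed animal 1.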
